A study of Mus musculus with 96 samples.

Results

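Mbp, Mog, Mag, Cldn11, Mobp, Cnp, Mal, Opalin and Ermn are genes of oligodendrocytes and of the myelin they make, 9 of the 56748 genes in the count table. They were chosen by name and by measured values, namely their counts per 1000000 counts of a library (CPM) in cerebral cortex under both diets in male mice 1 to 16 and in female mice 25 to 40. Since those values chose the genes, they are given as a description, and nothing is read from how many of the 9 the fits over all genes call in cortex. The study compared mice fed ad libitum (AL) with mice on intermittent fasting (IF) in liver, skeletal muscle and cortex, to ask what daily fasting changes in each tissue. Its 96 libraries of poly-A RNA hold 8 mice for each tissue, sex and diet. Male mice were C57BL/6 on a standard chow diet, with free access to it (AL) or with none for 16 h of each day (IF); this began at 6 weeks of age and lasted 4 months. The tissues were taken in the morning, when the IF mice had come to the end of their fast, after perfusion with PBS. For the female mice the labels give tissue, sex and diet (AL or IF). They were recorded here with the same 16 h of daily fasting under IF and 4 months of diet. Their strain and age are not stated, and the methods describe male mice only. Sex therefore goes with the set of mice, and an effect of sex and one of the set cannot be told apart.

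Oligodendrocytes wrap the axons of the central nervous system in myelin, a spiral of tightly packed membrane that speeds the conduction of impulses. The membrane is built from specific lipids and a small set of very abundant proteins, some inside the compacted layers and others on the surfaces that face the axon, the outside or the cytoplasm. The cells arise from precursors that persist in the adult brain, and in cortex their myelin is densest in the deep layers and the white matter underneath.

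Total counts per library, in units of 1000000 counts (M), lay between 31.2 M and 47.9 M in cortex with a median of 35.002 M, between 28.3 M and 49.8 M in muscle with a median of 36.7 M, and between 26.1 M and 44.8 M in liver with a median of 36.1 M. Xist, the RNA of the inactive X chromosome, and the Y-linked Ddx3y served to check the sex labels. In 47 of the male libraries Xist reached at most 0.612 CPM and Ddx3y at least 25.1 CPM, and in the 48 female libraries Xist reached at least 36.8 CPM and Ddx3y at most 0.0497 CPM. The cortex library labelled male AL mouse 1 went against its label, with 213 CPM of Xist and 0 counts of Ddx3y. It was left out of the cortex comparisons, which leaves 31 cortex libraries, and the main values are also given with it. The neuronal marker Snap25 had a mean of 2483 CPM over those 31 libraries and Slc17a7, the glutamate transporter of cortical excitatory neurons, 1896 CPM. Mbp lay at or above 2597 CPM in every cortex library, at or below 79.8 CPM in every muscle library and at or below 3.12 CPM in every liver library, which is given as a level and not as a check of the label, since Mbp in cortex is among the values that chose the genes.

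Levels were compared between the 9 genes on a scale of CPM per kilobase of gene length. In fed male cortex (n = 7) the mean level per kilobase was 387 for Mbp, followed by Mobp with 124, Cnp with 89.4 and Cldn11 with 66.3. Mal came next with 54.2, then Mag with 41.1 and Mog with 32.3, and the lowest were Ermn with 10.8 and Opalin with 10.4. Mbp lay above Mobp in each of the 4 cortex groups with no overlap between libraries, and Mog lay above Ermn and Opalin in the same way. The other neighbours overlapped in range between mice. Within single libraries, Mobp lay above Cnp and Cnp above Cldn11 in 31 of 31, Cldn11 above Mal in 30, Mal above Mag in 28 and Mag above Mog in 30, the fed males showing this order in 7 of 7. Ermn lay above Opalin in 4 of 7 fed and 7 of 8 fasted males and in 0 of 16 females. By group means the first 7 places were the same in the 4 groups, and Opalin and Ermn changed places in the female mice, with 17.5 against 11.1 in the fed ones.

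The genes of the compacted membrane come first. Mbp (ENSMUSG00000041607, chr18:82493271-82603762 of GRCm39) encodes myelin basic protein, which holds the cytoplasmic faces of the membrane together. In fed male mice its level ran from 2597 to 4107 CPM (median 3269), and in fasted ones from 3719.8 to 6320.4 CPM (median 4927). The groups overlapped, with 6 of 8 IF libraries above every AL library. In female mice Mbp ran from 3547 to 5998 CPM (median 4149) under AL and from 2962 to 5052 CPM (median 4077) under IF, and the diets overlapped widely. Mobp (chr9:119978773-120010550), for a small basic protein of the same cytoplasmic faces, ran from 657 to 1074 CPM (median 767) in fed males and from 903 to 1733 CPM (median 1343) in fasted males. Here too 6 of 8 IF libraries exceeded all AL libraries. The female levels of Mobp were from 832 to 1444 CPM (median 1100.2) under AL and from 779.6 to 1364 CPM (median 1041) under IF, with 4 of 8 IF libraries above the AL median and 4 below it.

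Mal (chr2:127475146-127498615) encodes a small membrane proteolipid of lipid-rich domains that takes part in sorting myelin components. In males its level lay from 119 to 185 CPM (median 156) under AL and from 157 to 301 CPM (median 219) under IF, with 6 of 8 fasted libraries above the highest fed one. In females it lay from 133 to 236 CPM (median 206) and from 142 to 256 CPM (median 170.1) respectively, and 1 fasted library was above all fed ones. Cldn11 (chr3:31204069-31218473), for the claudin of the tight junctions between myelin layers, had fed male values from 98.8 to 146 CPM (median 131) and fasted male values from 134 to 215 CPM (median 180.0). All but 1 of the 8 IF males exceeded every AL male. Female values of Cldn11 ran from 127 to 214 CPM (median 169.6) under AL and from 110.0 to 170.3 CPM (median 145) under IF, with 2 IF libraries under the lowest AL library.

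On the surfaces of the sheath, Mog (chr17:37321635-37334290) encodes the immunoglobulin-domain protein of the outermost layer, widely used to mark mature oligodendrocytes. Fed males had 44.1 to 67.2 CPM (median 55.7) and fasted males 68.1 to 89.4 CPM (median 81.2), so the diets did not overlap. In females Mog ran from 65.6 to 107 CPM (median 79.5) under AL and from 48.9 to 79.4 CPM (median 71.4) under IF, with overlap, and all 8 IF libraries lay below the AL median. Mag (chr7:30598601-30614298) encodes a sialic acid-binding adhesion protein of the membrane next to the axon. Its male values ran from 128 to 206 CPM (median 172) under AL and from 160.3 to 236 CPM (median 224) under IF, and 6 of 8 IF libraries were higher than every AL library. Its female values ran from 201 to 339 CPM (median 259.8) under AL and from 171 to 246 CPM (median 228) under IF, and 3 of 8 IF libraries were lower than every AL library.

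Opalin (chr19:41050149-41065552), which encodes a transmembrane glycoprotein of oligodendrocytes, was the member with the smallest difference in males. It lay from 21.7 to 42.4 CPM (median 30.4) in AL males and from 24.01 to 37.6 CPM (median 31.9) in IF males, with 4 IF libraries on each side of the AL median. In females it lay from 37.5 to 71.2 CPM (median 50.5) under AL and from 27.9 to 44.2 CPM (median 36.4) under IF, and 4 of 8 IF libraries were below the lowest AL library. Of the genes for proteins of the cytoplasm, Cnp (chr11:100465730-100482555) encodes the cyclic nucleotide phosphodiesterase that keeps channels of cytoplasm in myelin from closing. Male values of Cnp ran from 251 to 374 CPM (median 325) under AL and from 377 to 508 CPM (median 443) under IF, and the diets did not overlap. Among females Cnp ran from 379 to 607 CPM (median 464) under AL and from 305 to 487 CPM (median 400.0) under IF, with 3 IF libraries below all AL libraries. Ermn (chr2:57935125-57942876), for a cytoskeletal protein of late oligodendrocytes, ran from 29.9 to 51.02 CPM (median 40.1) in AL males and from 34.3 to 66.7 CPM (median 46.4) in IF males. Only 2 of these 8 IF libraries were above all AL ones. The female range of Ermn was 28.8 to 48.4 CPM (median 42.4) under AL and 26.9 to 39.7 CPM (median 31.9) under IF, all 8 IF libraries lying below the AL median.

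**Figure D1:**
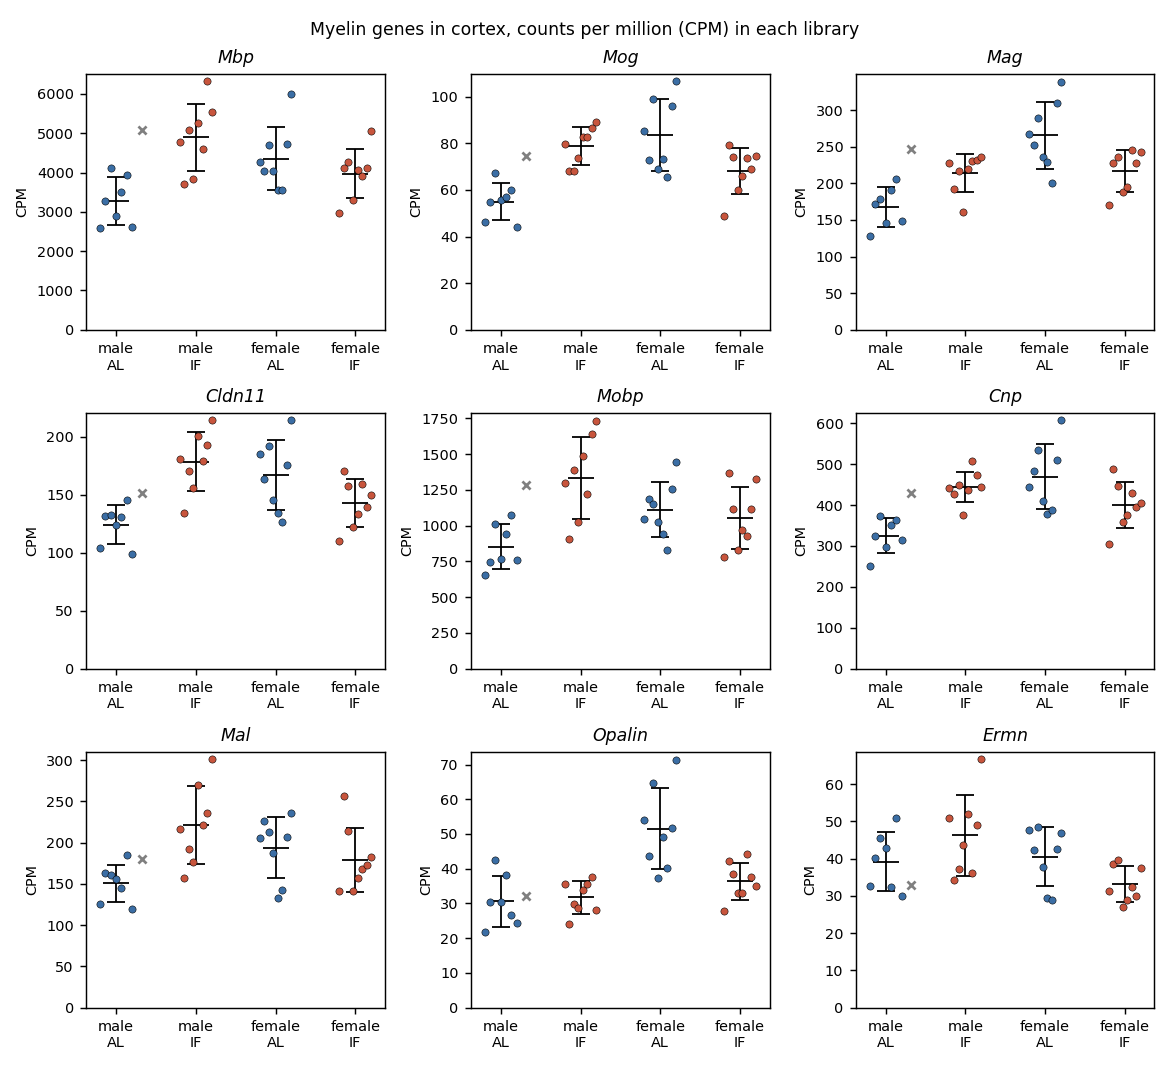
CPM of the 9 genes in each cortex library (points) by sex and diet, with the group mean and SD, and the library labelled male AL mouse 1 as a grey cross. Mog and Cnp do not overlap between fed and fasted males, and the 9 female panels overlap between the diets.

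Over the 9 genes, each mean was higher in fasted than in fed males and lower in fasted than in fed females. The ratio of the IF mean to the AL mean in males ran from 1.04 (Opalin) to 1.57 (Mobp) with a median of 1.43, and in females from 0.707 (Opalin) to 0.948 (Mobp) with a median of 0.852. For Mbp the male means were 3275 ± 606 CPM (SD, n = 7) and 4892 ± 864 CPM (SD, n = 8), and the female means 4356 ± 799 and 3972 ± 628 CPM (SD, n = 8 each). In bulk tissue, fewer cells of a type and less RNA per cell cannot be told apart, in either direction. With the library labelled male AL mouse 1 counted as a fed male, all 9 ratios stayed above 1 (1.03 to 1.48, median 1.37), while none of the 9 genes was free of overlap. Of 15404 genes with a mean of at least 1 CPM, 1.16% did not overlap between the diets in males, where 2 of the 9 did not, and 0.227% with that library, where 0 of the 9 did not. In females 0.0454% of these genes did not overlap and 0 of the 9. That library held 7503 CPM summed over the 9 genes, above the highest other fed male.

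Summed over the 9 genes, of which Mbp was the most abundant, the level was 3965 to 6122 CPM (median 4935) in fed males and 5661 to 9265 CPM (median 7468) in fasted males. It was 5373 to 9064 CPM (median 6552) in fed females and 4577 to 7507 CPM (median 6149.6) in fasted females. Fed male mice 2 and 8 had the lowest sums, 3965 and 4162 CPM, and fasted male mice 15 and 16 and fed female mouse 32 the highest, 9265, 8659 and 9064 CPM. The fed females overlapped both male groups and lay mostly above the fed males.

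From the fit of each sex alone with edgeR, the log2 fold changes (IF over AL ± SE) of the members in males were 0.66 ± 0.13 for Mobp, 0.59 ± 0.12 for Mbp and 0.57 ± 0.12 for Mal. Cldn11 had 0.54 ± 0.092, Mog 0.53 ± 0.084, Cnp 0.46 ± 0.080 and Mag 0.37 ± 0.097. The smallest were 0.25 ± 0.14 for Ermn and 0.065 ± 0.13 for Opalin, the former under 2 of its SE and the latter under 1. Of the 9 members, 7 had an adjusted p under 0.05 in males, beside 7.21% of the 18462 genes tested (3.79% higher and 3.43% lower under IF). With the library labelled male AL mouse 1 this count was 4, beside 294 genes called in all. In the 7 and 7 mice of the proteome it was 3, beside 78, and with a covariate for striatal markers, given further on, 6, beside 868. As these values chose the members, nothing is read from these counts. In females the log2 fold changes ran from -0.51 ± 0.13 for Opalin to -0.082 ± 0.13 for Mobp, with a median of -0.24. Of the 9, edgeR called 0 in females and 5 had an unadjusted p under 0.05, beside 0.0109% of 18403 genes called by edgeR. DESeq2 called 1 (Opalin), beside 73 of the 18403 genes. The overlap with a neighbouring gene matters most for Cnp, whose span overlaps Dnajc7 on the opposite strand (mean 141 CPM in cortex). The other overlapping genes had means of at most 5.72 CPM (Rpl21-ps8, within Mbp), and how reads of the opposite strand or of more than 1 gene were counted is not stated, so such reads cannot be set apart.

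The difference between the sexes in the diet response was next given by an interaction term over the 31 cortex libraries. It was positive for each of the 9 members, from 0.54 ± 0.19 for Ermn to 0.83 ± 0.15 for Mog (log2, male minus female, ± SE), with a median of 0.70. Of the members 7 were called higher, against 2.03% of 19547 genes (0.967% higher and 1.06% lower). The count was 3 with the library labelled male AL mouse 1 (81 genes called in all), 3 with the striatal covariate (108) and 4 with no filter on low counts (220). Nothing is read from these counts either. Between fed males and fed females, the ratio of means ran from 0.594 (Opalin) to 0.968 (Ermn) and was below 1 for each of the 9, with a median of 0.742. Cnp alone did not overlap, all 7 fed males lying below all 8 fed females, and 2.06% of the 15404 genes did not overlap there. Among fasted mice, 7 of 9 ratios of male to female means were above 1 (median 1.23), Mag with 0.989 and Opalin with 0.870 being the exceptions. The edgeR fit called 6 of 9 members lower in fed males than in fed females, beside 12.6% of genes called (7.11% higher and 5.54% lower), and since the same values chose the members nothing is read from this count. The interaction and the comparisons between the sexes use the same libraries as the diet comparisons, so they are not independent of them.

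Other genes of the oligodendrocyte lineage, 54 in 5 lists, were tested with edgeR's quasi-likelihood test, each adjusted p being by Benjamini-Hochberg over all genes tested and called below 0.05. These lists too were chosen with earlier results of these data known, and they use the same libraries as the members. How many of their genes were called, here and in the later fits, is therefore a description and no independent support. Of the 54, 41 had a positive and 13 a negative log2 fold change in males, with a median of 0.16 beside -0.0049 over all genes tested, and edgeR called 11 higher and 1 lower, beside 3.79% and 3.43% of all genes tested. By list, 5 of 15 genes of the myelin membrane rose (median 0.29), 1 of 9 transcription factors rose (median 0.038), 4 of 14 other oligodendrocyte genes rose (median 0.26), and of 10 genes of precursors and newly formed cells 1 rose and 1 fell (median 0.085). Of 6 genes of myelin lipid synthesis and turnover edgeR called 0 (median 0.062), with 3 at an unadjusted p under 0.05 and 0 called by DESeq2.

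Hapln2, which encodes a link protein of the matrix at nodes of Ranvier, ran from 27.2 to 45.8 CPM (median 36.5) in fed males and from 41.7 to 93.01 CPM (median 61.3) in fasted males. It rose by 0.79 ± 0.16 (log2 ± SE, adjusted p = 0.0106), with 8 of 8 IF libraries above the AL median although the ranges overlapped. Nfasc, for a cell adhesion protein of the node and paranode, ran from 170.1 to 248 CPM (median 184) and from 187 to 308 CPM (median 268) in the same groups, and rose by 0.45 ± 0.095 (adjusted p = 0.00970, 8 of 8 libraries). Cntn2, whose product binds axon and glia beside the paranode, rose by 0.53 ± 0.13 (adjusted p = 0.0245, 7 of 8 libraries), with overlap. The tetraspanin gene Tspan2 rose by 0.41 ± 0.10 (adjusted p = 0.0211, 6 of 8 libraries) and Plekhb1 by 0.35 ± 0.093 (adjusted p = 0.0296, 7 of 8 libraries).

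Myrf, the transcription factor that starts and maintains myelin gene expression, ran from 32.7 to 57.95 CPM (median 39.8) in fed and from 45.4 to 79.9 CPM (median 63.03) in fasted males. It rose by 0.59 ± 0.12 (log2 ± SE, adjusted p = 0.00872), and 8 of 8 IF libraries were above the AL median. Sox10 and Olig2, which specify the lineage, were not called, with log2 fold changes of -0.16 ± 0.087 (adjusted p = 0.267) and 0.038 ± 0.13 (adjusted p = 0.901), and 2 and 5 of 8 IF libraries above the AL medians. Among precursor genes, Bcas1, which marks newly formed myelinating cells and is also made by mature ones, rose by 0.43 ± 0.11 (adjusted p = 0.0286, 8 of 8 libraries). Lhfpl3, a gene of precursor cells, fell from a range of 13.8 to 21.003 CPM (median 16.8) to 10.5 to 13.99 CPM (median 11.6), a log2 fold change of -0.45 ± 0.095 (adjusted p = 0.00953), with all 8 IF libraries below the AL median. Pdgfra, the growth factor receptor of precursors, had -0.19 ± 0.096 (adjusted p = 0.223, 7 of 8 libraries below the AL median) and was not called. The other 4 genes that rose were Lgi3 (0.41 ± 0.076, 8 of 8 libraries), Septin4 (0.31 ± 0.069, 8 of 8), Gsn (0.31 ± 0.087, 6 of 8) and Efnb3 (0.26 ± 0.077, 7 of 8), with adjusted p between 0.00527 and 0.0436.

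The male counts rest on the choice of libraries. The library labelled male AL mouse 1 went against its sex label, so settings that hold it mix a library of doubtful sex into the fed males. With the library labelled male AL mouse 1 added, edgeR called 294 genes in place of 1332, and 4 of the 54 lineage genes (Myrf, Tspan2, Lgi3 and Lhfpl3). Without fed mouse 2 it called 638 genes and 6 lineage genes, and in the 7 fed and 7 fasted mice that the study's protein tables name, among them fed mouse 1, 78 genes and 0 lineage genes by edgeR (22 at an unadjusted p under 0.05; DESeq2 was not run on these mice). Over 24 alternatives the adjusted p of Hapln2 ran from 1.77e-05 to 0.0974, that of Myrf from 0.000100 to 0.0865 and that of Lhfpl3 from 0.000516 to 0.125. Those of Nfasc, Cntn2 and Tspan2 ran from 0.000232 to 0.165, 0.00146 to 0.277 and 0.00358 to 0.0555. For Lgi3 and Septin4 the ranges were 3.68e-05 to 0.111 and 0.000655 to 0.209, for Bcas1 and Plekhb1 0.00471 to 0.354 and 0.00757 to 0.166, and for Gsn and Efnb3 0.00773 to 0.110 and 0.0186 to 0.160. Hapln2, Lgi3, Lhfpl3, Myrf, Nfasc and Septin4 were called in each of the 15 fits with 1 library left out.

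In fasted against fed females, 44 of the 54 lineage genes had a negative log2 fold change and 10 a positive one, with a median of -0.16 beside 0.0031 over all genes. The edgeR test called 0 of them, beside 0.0109% of all genes tested, 27 had an unadjusted p under 0.05, and DESeq2 called 4, each lower (Gjb1, Nkx6-2, Aspa and Evi2a, named for being called there). Medians by list were -0.22 for the myelin membrane, -0.17 for lipid enzymes, -0.15 for transcription factors, -0.22 for the other oligodendrocyte genes and 0.083 for precursor genes. Of the genes named for males, Sox10 had -0.24 ± 0.094, Hapln2 -0.083 ± 0.099, Myrf -0.040 ± 0.13, Olig2 -0.045 ± 0.077 and Pdgfra 0.016 ± 0.087. None of these 5 passed the test by edgeR or DESeq2. Of the genes that rose in males, Nfasc had 7 of 8 fasted female libraries above the fed female median and Cntn2 5. Myrf had 4, Bcas1 3, Hapln2, Gsn and Efnb3 2 each, Plekhb1, Tspan2 and Lgi3 1 each, and Septin4 0.

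**Figure D2:**
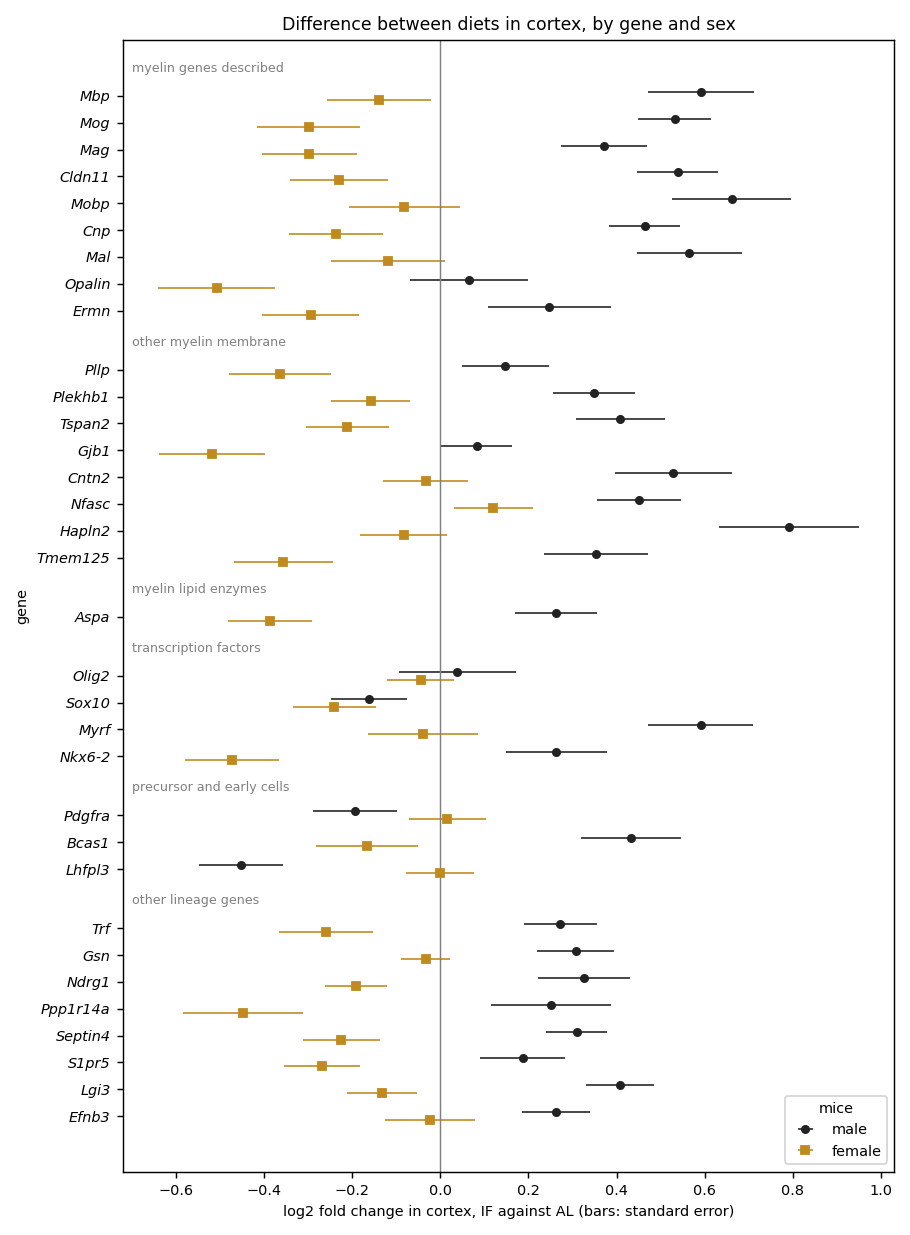
Log2 fold change of fasted over fed cortex with its SE, in male and female mice, for the 9 members and 24 named lineage genes by list. Male values lie mostly to the right of 0 and female values mostly to the left, Lhfpl3 being lower in fasted males.

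The test of the difference itself, sex by diet, called 12 of the 54 lineage genes, 11 with a higher response in males and Lhfpl3 with a lower one, beside 0.967% and 1.06% of all genes tested. The median over the 54 was 0.33, and 47 had a positive term. Hapln2 had a term of 0.87 ± 0.19 (log2 ± SE, adjusted p = 0.0144), Nkx6-2, a homeobox factor of the lineage, 0.73 ± 0.16 (adjusted p = 0.0163), and Aspa, the enzyme that splits N-acetylaspartate, 0.64 ± 0.14 (adjusted p = 0.0117). Nkx6-2 ran from 14.1 to 23.3 CPM (median 17.1) in fed males, from 16.6 to 26.1 CPM (median 21.1) in fasted males, from 22.5 to 34.6 CPM (median 27.1) in fed females and from 15.8 to 23.8 CPM (median 18.9) in fasted females. Its fed males were lowest and its fed females highest, the fasted groups lying between them, and neighbouring groups overlapped. For Myrf the term was 0.63 ± 0.18 (adjusted p = 0.0622), not called by edgeR and called by DESeq2. The remaining 9 called genes were Plekhb1, Tspan2, Gjb1, Tmem125, Lhfpl3, Trf, Ndrg1, Septin4 and Lgi3, with terms between -0.46 ± 0.12 and 0.71 ± 0.17. With the library labelled male AL mouse 1 added, 2 of the 54 were called. Over 5 alternatives the adjusted p of Hapln2 ran from 0.000886 to 0.0904, of Nkx6-2 from 0.00205 to 0.0684 and of Aspa from 0.00123 to 0.0554.

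Between the sexes in fed mice, edgeR called 20 of the 54 lineage genes lower and 1, Lhfpl3, higher in males, beside 5.54% and 7.11% of all genes tested, and the median was -0.23 beside -0.0051 over all genes. S1pr5, for a receptor of sphingosine 1-phosphate, ran from 14.3 to 20.5 CPM (median 17.7) in fed males and from 22.2 to 33.2 CPM (median 29.3) in fed females, with no overlap (log2 fold change -0.74 ± 0.096, adjusted p = 4.72e-06, 7 of 7 males below the female median). Pllp, for a myelin proteolipid, also had no overlap, at 8.69 to 13.5 CPM in fed males and 15.4 to 24.1 CPM in fed females (-0.65 ± 0.11, adjusted p = 0.000307). Ppp1r14a had -0.64 ± 0.15 (adjusted p = 0.00476) and Nkx6-2 -0.60 ± 0.12 (adjusted p = 0.00106), each with 7 of 7 fed males below the female median. Lhfpl3 had 0.30 ± 0.087 (adjusted p = 0.0204), with 7 of 7 above it. Over 5 alternatives the adjusted p of S1pr5, Pllp, Ppp1r14a and Nkx6-2 was at most 0.0169, and that of Lhfpl3 ran from 0.0117 to 0.105.

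Markers of other cells and regions, 80 genes in 13 lists, were read beside these results. In males 77 were tested and 38 had a positive log2 fold change. Beside 7.21% of all genes tested, edgeR called 4 of the 77, and nothing is read from this count. The 4 were Aqp4, the water channel of astrocytes (-0.51 ± 0.085, adjusted p = 0.00258, 8 of 8 IF libraries below the AL median), Cldn5 of endothelial tight junctions (-0.43 ± 0.11, adjusted p = 0.0251, 8 of 8 below), the endothelial Ly6c1 (0.43 ± 0.11, adjusted p = 0.0222, 8 of 8 above) and Cdh19 of the Schwann cell list (0.46 ± 0.13, adjusted p = 0.0415). Male medians were -0.11 for astrocytes (most abundant gene Slc1a2), -0.14 for microglia (Csf1r), -0.054 for endothelium (Cldn5) and 0.016 for neurons (Snap25). For cortical excitatory neurons (Slc17a7) the median was -0.019, for interneurons (Sst) -0.13, for hippocampus (Fibcd1) -0.077 and for thalamus (Ramp3) -0.10. Meninges (Col1a2) had -0.27, red blood cells (Hbb-bs) -0.066 and the Schwann cell list (Drp2) 0.24. Drp2 had a mean of 63.6 CPM in cortex and at most 11.6 CPM in a muscle library, so this list is not read as Schwann cells in cortex. Of the Schwann cell genes Pmp2 had 0 counts in every cortex library used. In females edgeR and DESeq2 each called 0 of 77 genes, with 11 at an unadjusted p under 0.05 by edgeR. Sex by diet was called for 2 of 78, Aqp4 (-0.55 ± 0.14) and Pvalb of interneurons (0.90 ± 0.23), beside 2.03% of all genes tested. In fed mice 17 of 78 were called between the sexes, beside 12.6% of all genes tested. Besides 8 striatal genes, those higher in males were Cldn5, Gad2 and Prkcd, and those lower were Pmp22, Aldh1l1, Slco1a4, Pvalb, Lct and Ramp3.

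Markers of the striatum, which lies beneath the cortex, moved with the groups. Their 9 genes, Ppp1r1b being the most abundant and none at 0 in any library, summed to 269 to 2969.9 CPM (median 1161) in fed males and 843 to 2646 CPM (median 1944) in fasted males. In females the sums were 240.1 to 896 CPM (median 381) under AL and 243 to 655 CPM (median 333) under IF. Male libraries were thus mostly higher than female ones, and the diets overlapped in both sexes. All 9 had a positive log2 fold change in males (median 0.59) and 8 of 9 a negative one in females (median -0.31). In males edgeR and DESeq2 called 0 of the 9, with 0 at an unadjusted p under 0.05. In fed mice all 9 had a positive log2 fold change, male over female, with a median of 1.49, and edgeR called 8 higher (all but Ppp1r1b), with Drd1 at 1.35 ± 0.38 (adjusted p = 0.0194). With the mean log2 level of these 9 markers added to the male fit as a covariate, chosen after the data were seen, the members' log2 fold changes ran from -0.019 (Opalin) to 0.56 (Mobp), with a median of 0.47 in place of 0.53. The lineage genes called were then 8 in place of 12 in males, beside 868 in place of 1332 genes in all. For sex by diet they were 2 in place of 12, beside 108 in place of 397 genes in all. For sex by diet the lineage median was then 0.30 in place of 0.33, the term of Hapln2 0.75 in place of 0.87 and that of Tspan2 0.58 in place of 0.62. In males the lineage median was 0.10 in place of 0.16. Between the sexes in fed mice, the members' median was -0.54 in place of -0.44 with the covariate, and the lineage median -0.27 in place of -0.23. There 7 members were called in place of 6, beside 1471 genes in place of 2472, and nothing is read from this count. For diet in females, the lineage median was -0.17 in place of -0.16.

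Choroid plexus markers, 6 genes with Ttr the most abundant, summed to 5.68 to 3169 CPM (median 36.3) in fed males, 6.33 to 3479 CPM (median 20.8) in fasted males, 8.79 to 127 CPM (median 22.02) in fed females and 4.66 to 4392 CPM (median 12.3) in fasted females. A few libraries held most of this signal, namely fed male mouse 4, fasted male mice 11 and 14 and fasted female mice 34 and 36. In 1 or more fed female libraries 1 of the 6 genes was at 0. The median log2 fold change of the 6 was 0.50 in males and 2.33 in females, and the part of these markers in the results was not tested.

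**Figure D3:**
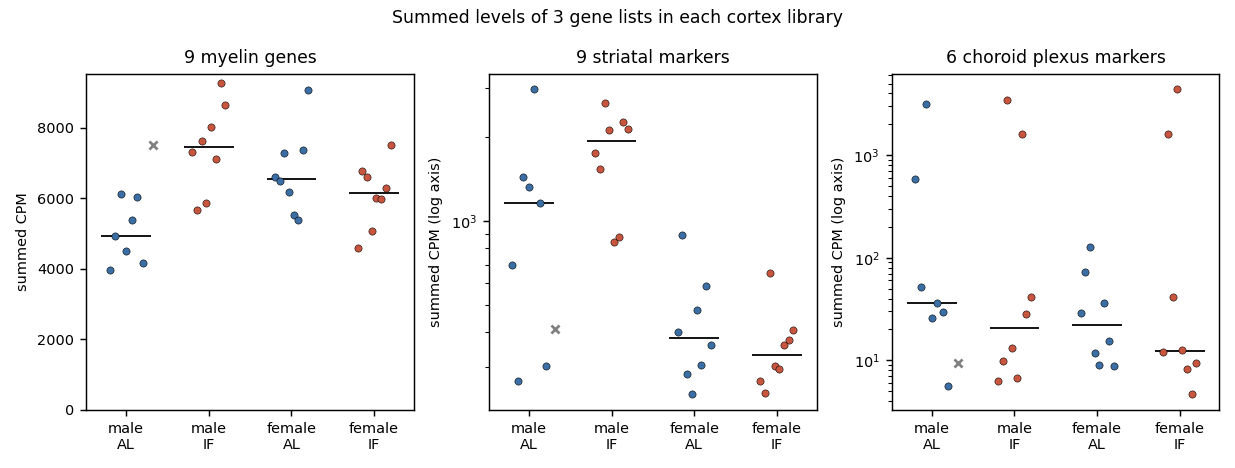
Summed CPM of the 9 myelin genes, the 9 striatal markers and the 6 choroid plexus markers in each cortex library by sex and diet (marker axes on a log scale), with group medians as lines and the library labelled male AL mouse 1 as a grey cross. Striatal sums reach 2970 CPM in male mice and 896 CPM in female mice, and single libraries stand high for choroid plexus.

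Within groups, the 9 genes varied together. After the mean of each of the 4 groups was taken out, each member's log2 CPM was set against the mean of the other 8 over the 31 cortex libraries, as a description with no test. Pearson's r was highest for Cldn11 (0.96), then Mog (0.914), and lowest for Opalin (0.70) and Ermn (0.737). Of 15395 other genes with a mean of at least 1 CPM, those most like the mean of the 9 were Trf, which encodes transferrin (r = 0.923), Bcas1 (0.899), Prr18 (0.892), Tmem63a (0.887), Plekhb1 and Tmem88b (0.876 each). Tspan2 (0.852), Ankub1 (0.849) and Septin4 (0.837) were also among the first 10. Median r was 0.712 for the myelin membrane list, 0.771 for lipid enzymes, 0.595 for the other oligodendrocyte genes, 0.46 for transcription factors and 0.185 for precursor genes, beside -0.017 over all genes and 0.263 for striatal markers. Depth and summed striatal markers differed between these libraries, so r describes only how the values ran side by side.

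Skeletal muscle holds nerve, in which Schwann cells make myelin with some of the same proteins. Of the 9 genes, Mbp, Mag, Cnp and Mal passed the filter on low counts there. Mbp lay from 12.7 to 51.6 CPM (median 18.8) in fed males and from 12.7 to 53.8 CPM (median 28.1) in fasted males, and from 15.5 to 79.8 CPM (median 30.998) and from 10.3 to 68.2 CPM (median 20.02) in fed and fasted females. Values spread widely within each group and overlapped between the diets. Cnp lay from 12.99 to 20.7 CPM (median 14.8) in fed and from 11.8 to 20.4 CPM (median 15.1) in fasted males, and Mag and Mal stayed at or below 6.28 CPM in every muscle library. By edgeR 0 of these 4 were called in males, where 23% of 15025 genes were, and 0 in females, where 0.00653% of 15308 were; DESeq2 called 0 and 0 were at an unadjusted p under 0.05 in either sex. The log2 fold changes of Mbp were 0.013 ± 0.39 in males and -0.36 ± 0.42 in females, errors too wide to tell a small change from none. Of 7 Schwann cell genes tested in muscle, edgeR and DESeq2 called 0 in either sex, with 1 at an unadjusted p under 0.05 in males and 0 in females. Opalin had 0 counts in every muscle and liver library, and Mog, Cldn11, Mobp and Ermn at most 13 counts in a muscle library.

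In liver the same 4 genes were tested, at low levels. Mbp ran from 0.201 to 1.15 CPM (median 0.879) in fed males, on 9 to 47 counts, and from 1.24 to 3.12 CPM (median 2.55) in fasted males, on 43 to 114 counts. All 8 fasted males lay above all 8 fed males, but the share of all liver genes without overlap was not computed, so nothing is read from this. Mbp rose by 1.47 ± 0.34 (log2 ± SE, adjusted p = 0.000937). Cnp ran from 8.74 to 18.9 CPM (median 9.79) in fed males and from 4.70 to 8.83 CPM (median 6.93) in fasted males, the diets overlapping at the edge. It fell, the log2 fold change being -0.74 ± 0.17 (adjusted p = 0.000904). So 2 of 4 tested members were called in male liver, in opposite directions, beside 44.6% of 16204 genes, and nothing is read from that share. Mag had 0.16 ± 0.76 and Mal 1.07 ± 0.56, neither called. Of 4 genes of the Schwann cell list tested there, edgeR called Prx higher (2.43 ± 0.65, adjusted p = 0.00391) and Ncmap lower (-1.54 ± 0.44, adjusted p = 0.00653). Both lay near the floor. Prx had 0 to 15 counts in fed males, with 2 libraries at 0, and 15 to 93 in fasted males. It passed the filter on low counts through the fasted group, so nothing is read from the size of its difference. Ncmap had 27 to 111 counts in fed and 6 to 59 in fasted males. In female liver, where edgeR called 0% of 15938 genes (0 genes, with 919 at an unadjusted p under 0.05 and 6 called by DESeq2), Mbp had 0.053 ± 0.34 and Cnp -0.063 ± 0.17. Whether the liver response of Mbp and Cnp differed between the sexes was not tested. Mobp and Ermn had 0 counts in every liver library, and depths of 26.1 M to 44.8 M limit what a count of 0 can show.

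Promoters of the members were read as a description of their letters, and their part in the shared variation within groups was not tested. The RefSeq table (GRCm38.p6) holds promoters, 250 bases before to 50 after a start, for 8 of the 9 members, 10 promoters in all, as Mag has 3. Both strands were searched for 5 motifs of 6 letters, and the share of all 32851 promoters of 27025 genes that hold each is given. A SOX motif that proteins such as Sox10 bind, ACAAAG, is in 18.7% of promoters. Its close relative among the motifs of these proteins, ACAATG, is in 12.6% of promoters. The E-box CAGCTG, which Olig factors can bind, is in 16.3% of promoters. The other E-box searched for, CATCTG, is in 17.2% of promoters. The TATA box, searched for as TATAAA, is in 13.6% of promoters. The Mobp promoter holds 6 of the SOX motif with AAAG, a number no other promoter of the table reaches, and Opalin holds 2, which 2.37% of promoters reach. That motif is present 1 time in Cnp and in 2 of the 3 Mag promoters. Ermn holds 1 SOX motif with AATG, and Opalin 1 of each E-box. Mog, Cldn11 and Mal hold none of the 5 motifs, and no promoter of the 10 holds the TATA letters.

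The stretches before the start are shown for Mobp and Opalin, the members with the largest and the smallest ratio between the diets in males. The Mobp stretch is chr9:119978558-119978683 (+ strand, GRCm39, 126 bases, ending before the first annotated exon, 5 matches) and the Opalin stretch chr19:41065603-41065802 (- strand, 200 bases). Both read 5′ to 3′ on the gene's strand, and capitals mark each match to a motif searched, CTTTGT being ACAAAG on the other strand.
Mobp: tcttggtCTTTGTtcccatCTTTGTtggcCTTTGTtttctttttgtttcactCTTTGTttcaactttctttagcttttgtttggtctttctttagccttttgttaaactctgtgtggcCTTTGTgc
Opalin: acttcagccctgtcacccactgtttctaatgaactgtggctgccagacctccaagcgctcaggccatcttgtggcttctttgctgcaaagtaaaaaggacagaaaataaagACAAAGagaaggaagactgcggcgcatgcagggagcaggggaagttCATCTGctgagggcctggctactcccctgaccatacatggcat
A match describes these letters and shows neither binding nor a cause.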

How the data were processed

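The values are raw counts per gene as deposited, which the authors made by aligning reads to GRCm39 with HISAT2 and counting them with featureCounts. CPM was computed here from the total of each of the 96 columns. Each tissue and sex was fitted alone with edgeR 4.0.16 (TMM, filterByExpr, robust quasi-likelihood fit) under R 4.3.3, with Benjamini-Hochberg adjustment over all genes tested. Sex by diet and sex in fed mice come from 1 fit of the 31 cortex libraries. DESeq2 1.42.0 and the other alternatives are under sensitivity.

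The 9 members and the gene lists were chosen with earlier results of these data known. A gene is named if it is a member; a lineage gene called in a cortex fit (where over 12 were called, the 4 with the largest absolute log2 fold change in each direction) or Sox10, Olig2, Myrf or Pdgfra; 1 of the 10 genes most like the members; the most abundant or a called gene of another list; a member or Schwann cell gene called in muscle or liver; or Xist or Ddx3y. The listed Sept4 was matched as Septin4. The 13 other lists are Schwann cells, astrocytes, microglia, endothelium, neurons, cortical excitatory neurons, interneurons, striatum, hippocampus, thalamus, choroid plexus, meninges and red blood cells.

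Likeness is Pearson's r of log2 CPM, with 1 CPM added, after group means were taken out. Promoters are those of RefSeq on GRCm38.p6, and the stretches printed were found again in GRCm39. Some single genes of the lists are counted in them and not reported here. The protein data of the study were not used here.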

Additional observations from a re-analysis of the deposited data

Results flagged for a closer look

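A library stood apart from the rest of its group by Dixon's test in 7 of the 144 groups tested, and chance alone sets apart about 1 in 20 groups. Cntn2 was lowest in fasted male mouse 12 (106.2541 CPM). Lhfpl3 was highest in fasted female mouse 33 (17.6959 CPM) and Nfasc in fed female mouse 26 (303.315 CPM). The summed striatal markers were highest in fasted female mouse 35 (655.231 CPM). The summed choroid plexus markers stood apart in fed male mouse 4 (3168.8197 CPM), fasted male mouse 11 (3479.4639 CPM) and fasted female mouse 36 (4391.5818 CPM).

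The diet difference in cortex differed between male and female mice for 12 lineage genes by the interaction test. The log2 difference, male minus female, was 0.8694 for Hapln2, 0.7304 for Nkx6-2, 0.7051 for Tmem125, 0.6447 for Aspa, 0.6157 for Tspan2 and 0.5957 for Gjb1. It was 0.5363 for Lgi3, 0.5299 for Septin4, 0.5275 for Trf, 0.5137 for Ndrg1, 0.5015 for Plekhb1 and -0.4555 for Lhfpl3.

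In data outside the comparisons, the cortex library labelled male AL mouse 1 held 213.3203 CPM of Xist, above every other male library.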

How the results depend on the processing

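Counts of called genes moved with the tool and the libraries, and the cause was not tested. For fasted against fed male cortex (1332 genes called, 12 of them in the lineage lists), DESeq2 called 2259 genes and 21 lineage genes, and 1 fit over 31 libraries called 2044 and 13. Adding the library labelled male AL mouse 1 gave 294 and 4. The 7 and 7 mice of the proteome gave 78 and 0 by edgeR, with 22 lineage genes at an unadjusted p under 0.05 (DESeq2 was not run there). The striatal covariate, an alternative chosen after the data were seen, gave 868 and 8.

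With 1 library left out, the male counts ran from 638 genes (without fed mouse 2) to 2060 (without fasted mouse 12), and the lineage counts from 6 (without fed mouse 2) to 20 (without fed mouse 7). The total also moved by over 1.5 times without fed mouse 3 (766) or 5 (771), and without fasted mouse 11 (877), 13 (866) or 14 (823).

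For females (2 genes called, 0 in the lineage lists), DESeq2 called 73 and 4, and 1 fit over 31 libraries called 4. With 1 library left out the totals ran from 0 to 254, the latter without fed female mouse 26, and the lineage counts from 0 to 5, the 5 also without mouse 26. With all female libraries, 2069 genes and 27 lineage genes had an unadjusted p under 0.05 by edgeR. The total fell to 1 without fed mouse 27 or 29 or fasted mouse 36, and to 0 without any other mouse but 26 and 32.

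A block for the replicate number of the labels gave 382 genes and 5 lineage genes in males, and in females 0 genes by edgeR, with 2329 at an unadjusted p under 0.05. The correlations by which these numbers would pair mice lay between -0.2611 and 0.2071 in males and between -0.2237 and 0.1718 in females, so the numbers do not pair mice.

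For sex by diet (397 genes, 12 lineage genes), DESeq2 called 706 and 24, no filter on low counts 220 and 7, the library labelled male AL mouse 1 added 81 and 2, and the striatal covariate 108 and 2. For sex in fed mice (2472 genes), that library gave 1326 and the covariate 1471. In female muscle (1 gene called), DESeq2 called 91 and no filter 5. In female liver, edgeR called 0 (919 unadjusted) and DESeq2 6.

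Single genes changed sign where their values lay near 0. For Opalin, cortex diet male (0.0647) the log2 fold change was -0.0191 with the covariate, and with 1 library left out ran from -0.003 (without fed mouse 2) to 0.1649. For Olig2, cortex diet male it ran from -0.0271 (without fasted mouse 15) to 0.112, and was -0.0087 without fed mouse 8 and -0.0013 without fasted mouse 14. For Myrf, cortex diet female it ran from -0.0949 to 0.0355 (without fed mouse 26), and was 0.0071 without fasted mouse 33 and 0.017 with the covariate. For Olig2, cortex diet female it ran from -0.0845 to 0.0049, the latter without fasted mouse 33. For Pdgfra, cortex diet female it ran from -0.0412 (without fasted mouse 36) to 0.0612, and was -0.0117 without fed mouse 29, -0.0108 without fasted mouse 33, -0.0037 without fed mouse 27, -0.0017 without fed mouse 32 and -0.0007 without fed mouse 31. For Pdgfra, cortex sex, fed mice it was 0.0249 with the covariate.

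Of the members' log2 fold changes in males, 80 under other settings and 134 with 1 library left out kept their direction within the spread between mice, as did 63 and 144 in females. Members called in males were 7 (1332 genes called in all), but 4 with the library labelled male AL mouse 1 (294) and 3 in the 7 and 7 mice (78). For sex by diet they were 7 (397 genes called in all), but 3 with that library (81), 3 with the covariate (108) and 4 with no filter (220).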
